A study of Mus musculus with 9 samples.

Results

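Transcripts of the cyclins A, B and E, of the kinases CDK1 and CDK2, and of the CDC25 phosphatases were followed in MyC-CaP cells given recombinant NRG1 and assessed by RNA-Seq. The members were 10 genes chosen by symbol, Ccna2, Ccnb1, Ccnb2, Ccne1, Ccne2, Cdk1, Cdk2, Cdc25a, Cdc25b and Cdc25c, out of 15552 protein-coding genes in the count table. All 10 had enough counts to be tested, with 144 counts or more in every library. MyC-CaP is a mouse prostate cancer line grown from a tumor of a Hi-Myc mouse, in which a MYC transgene is driven by a prostate-specific promoter. All 9 libraries came from cells starved in medium without serum or calcium, and the HER3 ligand NRG1 was then present at 15 ng/mL for 0, 12 or 24 h, with 3 libraries labelled as biological replicates at each time. The 0 h cells were thus starved and not exposed. No library without NRG1 at 12 or 24 h was analysed here, so the time with NRG1 and the time in the starvation medium cannot be told apart.

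Cyclins bind and switch on cyclin-dependent kinases in a set order through the cell cycle. Cyclin E with CDK2 acts at the entry into DNA synthesis, cyclin A2 acts through DNA synthesis and G2 with CDK2 and then CDK1, and cyclin B with CDK1 starts mitosis. WEE1 and PKMYT1 hold these kinases inactive by phosphorylation, CDC25 phosphatases remove those phosphates, and ubiquitin ligases destroy the cyclins once they have acted. The mRNAs themselves rise and fall with the cycle in dividing cells, those of the E cyclins and Cdc25a around the start of DNA synthesis and those of Ccna2, the B cyclins, Cdk1, Cdc25b and Cdc25c later. In bulk RNA, more cells in a phase and more RNA per cell cannot be told apart.

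The libraries held between 28467089 and 39239760 counts. Krt8, a luminal keratin, ranged from 17.3 to 26.2 CPM (counts scaled to library size after TMM, a correction for library composition) and rose by 0.30 and 0.34 on the log2 scale at 12 and 24 h (edgeR adjusted p = 0.0169 and 0.0107). Krt18 was at most 0.491 CPM and the epithelial adhesion genes Epcam and Cdh1 had at most 3 and 4 counts in any library. The labels call the cells epithelial-like, and these adhesion markers were close to absent. Markers of stroma, endothelium and leukocytes summed to between 0.71 and 1.34 CPM. Cd68 was the highest of them, with up to 31 counts and at most 1.02 CPM, and Col1a2 and Cdh5 had at most 1 count. Mitochondrial transcripts took 1.41% to 1.5% of the counts at 0 h, 1.12% to 1.18% at 12 h and 1.21% to 1.36% at 24 h, and the part of this shift in the results was not tested.

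The upstream sequences of several members are shown with matches to letters by which cell cycle genes are often recognized. The CHR element is bound by MuvB complexes, which repress genes in quiet cells and activate them with MYBL2 and FOXM1 later. The CCAAT box is bound by NF-Y. E2F factors bind sites whose cores include TTCCCGC and TTCGCGC, the forms searched here. Windows for 7 of the 10 members were taken from the RefSeq promoter sequences (build GRCm38.p6). None was held there for Ccna2 and Ccne2, and Cdc25c was left out of the search. The 250 bases before the RefSeq start were searched on both strands for the CHR letters TTTGAA, for CCAAT and for these E2F cores. Of 32851 windows, 16% held TTTGAA, 33.8% held CCAAT, 5% held a searched E2F core and 5.55% held TTTGAA together with CCAAT. The searched letters do not overlap in the stretches printed, of which only that of Cdk1 holds TTTGAA. The 150 bases before the start follow for 5 members, read 5′ to 3′ on the strand of the gene, with matches in capitals. A CCAAT box on the opposite strand reads ATTGG, and the core TTCCCGC reads GCGGGAA.
Cdk1, chr10:69352913-69353062 (-): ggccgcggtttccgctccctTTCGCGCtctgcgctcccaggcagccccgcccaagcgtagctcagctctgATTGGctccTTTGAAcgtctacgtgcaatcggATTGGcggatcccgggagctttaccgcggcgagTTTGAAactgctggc
Ccnb2, chr9:70421555-70421704 (-): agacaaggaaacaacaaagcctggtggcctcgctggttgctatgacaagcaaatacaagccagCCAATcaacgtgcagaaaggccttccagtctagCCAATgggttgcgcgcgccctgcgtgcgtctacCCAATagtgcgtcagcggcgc
Cdc25b, chr2:131186798-131186947 (+): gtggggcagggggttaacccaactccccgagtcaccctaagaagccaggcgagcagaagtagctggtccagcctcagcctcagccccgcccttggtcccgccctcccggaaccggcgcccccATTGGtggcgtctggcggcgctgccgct
Cdk2, chr10:128705052-128705201 (-): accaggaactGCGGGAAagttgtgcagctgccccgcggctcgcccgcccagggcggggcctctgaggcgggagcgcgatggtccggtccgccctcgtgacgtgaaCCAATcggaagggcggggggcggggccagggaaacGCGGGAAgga
Cdc25a, chr9:109875429-109875578 (+): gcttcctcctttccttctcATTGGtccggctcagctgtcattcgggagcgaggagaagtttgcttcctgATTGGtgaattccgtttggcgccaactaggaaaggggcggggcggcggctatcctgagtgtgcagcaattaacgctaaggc

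Cdk1 carried TTTGAA at -71 and -15 from the start, CCAAT on the opposite strand at -80 and -48 beside them, and TTCGCGC at -130. A further opposite-strand CCAAT stood at -208, outside the stretch printed, and the last 26 bases before the RefSeq start lie inside the gene in the GENCODE annotation. Ccnb2 held CCAAT at -87, -54 and -21, and its TTTGAA stood at -167, outside the stretch printed. Ccnb1 held CCAAT at -99 and -67 and no TTTGAA, and its window runs 84 bases into the longer GENCODE gene, so its sequence is not printed. Cdk2 held TTCCCGC on the opposite strand at -140 and -10 with a CCAAT at -45. Cdc25a held opposite-strand CCAAT at -131 and -81 and no match to either E2F core searched, and Cdc25b held an opposite-strand CCAAT at -28. Other forms of the E2F core, such as the ttggcgc in the stretch printed for Cdc25a, were not searched. The lack of a match thus does not show that no E2F site is present. None of the searched letters was found in the 250 bases before Ccne1, of which the last 44 lie inside the GENCODE gene. Each match is a description of letters, not of binding.

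The 10 transcripts were then followed over time, beginning with the comparison of 12 h with 0 h. At 12 h, 7 of the 10 members passed an edgeR adjusted p of 0.05, all of them higher and 0 lower, against 13.6% of all tested genes higher and 11.9% lower. The 7 were Ccna2, Cdk1, Cdc25b, Ccnb1, Ccne2, Cdc25c and Cdk2, and all 10 members had a positive log2 fold change. The members' median log2 fold change was 0.30, against -0.0028 over all 11373 tested genes. A change of at least 1.5-fold together with that p was reached at 12 h by 0 members in edgeR and 0 in DESeq2. Over all tested genes, 1.34% reached it upward in edgeR. At an unadjusted p under 0.05 there were 8 members. The share of all genes at that unadjusted p was not counted, here or below. At 24 h, 7 members again passed upward and 0 downward, against 9.67% of genes higher and 7.76% lower, with Ccnb2 in place of Ccne2. Ccna2 and Cdk1 reached 1.5-fold at 24 h, 2 of 10 members against 1.68% of all genes. The members' median log2 fold change was 0.34 at 24 h, against -0.0065 over all genes. Both comparisons use the same 3 libraries at 0 h, so they are not independent of each other.

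**Figure D1:**
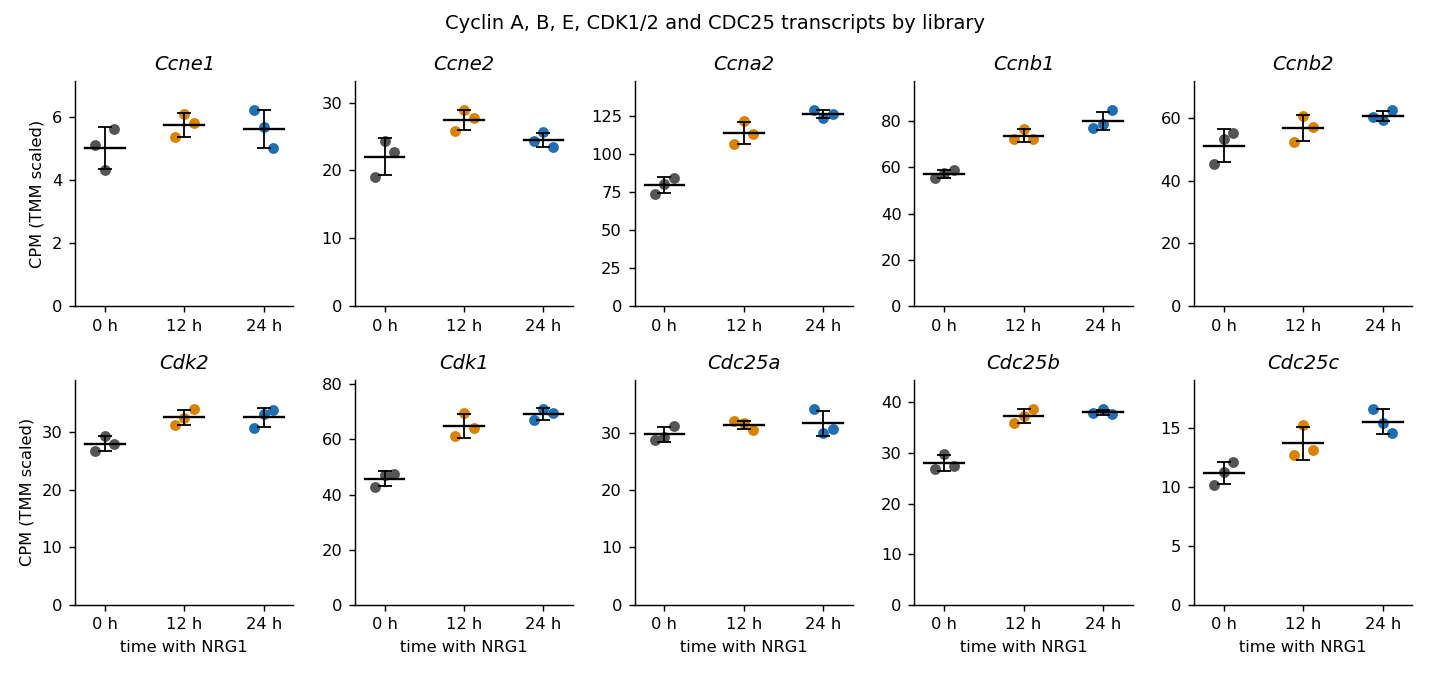
Expression of each member in the 9 libraries as TMM-scaled CPM (y axis, from 0, with its own range in each panel) by time with NRG1 in h (x axis). Points are libraries, and the bars show the mean ± SD of 3 libraries. For Ccna2, Ccnb1, Cdk1, Cdk2, Cdc25b and Cdc25c every 12 and 24 h library lies above every 0 h library, while the points of Ccne1 and Cdc25a overlap. The share of all genes separated in this way was not counted.

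Ccna2 encodes cyclin A2, the partner of CDK2 and CDK1 through DNA synthesis and G2. It lies on the minus strand at chr3:36564865-36572150 (GRCm38). Its CPM were 73.6, 80.2 and 84.25 at 0 h, 107, 121 and 113 at 12 h, and 128.5, 123 and 126 at 24 h. The 3 times did not overlap, and the 0 h libraries were the lowest. The log2 fold change was 0.52 ± 0.0522 (SE) after 12 h (edgeR adjusted p = 3.72e-06) and 0.67 ± 0.052 after 24 h (edgeR adjusted p = 3.43e-07), a 1.59-fold rise. This was the highest log2 fold change among the members at both times. About 12.5% of its exonic bases overlap Exosc9 on the opposite strand, which had log2 fold changes of 0.05 and -0.02 and did not pass at either time.

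Cdk1, the kinase that drives entry into mitosis, lies on the minus strand at chr10:69335146-69352938. Its CPM were 42.8, 47.0 and 47.6 at 0 h, 61.1, 69.6 and 64.1 at 12 h, and 66.9, 71.0 and 69.5 at 24 h. All 6 later libraries were above the 0 h libraries, while those of 12 and 24 h overlapped. Cdk1 rose by a log2 fold change of 0.50 ± 0.0542 after 12 h (edgeR adjusted p = 7.06e-06) and of 0.59 ± 0.0539 after 24 h (edgeR adjusted p = 1.24e-06). The 24 h change of 1.51-fold stood close to the threshold. It stayed below 1.5-fold without replicate 1 at 0 h (log2 fold change 0.55) and without replicate 2 at 24 h (0.58), leaving Ccna2 as the 1 member past that fold, and was at most 0.63 in the other fits that each left out 1 library.

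The B cyclins, which join CDK1 at the onset of mitosis, gave changes of different size. Ccnb1 (chr13:100778650-100786570, minus strand) measured 55.5, 57.5 and 59.0 CPM at 0 h, 72.3, 76.8 and 72.2 at 12 h, and 76.9, 78.8 and 84.65 at 24 h. Its 3 times did not overlap. Ccnb1 rose by 0.36 ± 0.0469 on the log2 scale after 12 h (edgeR adjusted p = 3.17e-05) and by 0.48 ± 0.0466 after 24 h (edgeR adjusted p = 2.12e-06). Ccnb2 (chr9:70407692-70421547, minus strand) measured 45.25, 53.3 and 55.1 CPM at 0 h, 52.4, 60.6 and 57.3 at 12 h, and 60.4, 59.3 and 62.5 at 24 h. The 0 and 12 h libraries of Ccnb2 overlapped, and its 24 h libraries were above all those at 0 h. The log2 fold change of Ccnb2 was 0.14 ± 0.0658 at 12 h, with a 95% interval from 0.0044 to 0.283 (edgeR adjusted p = 0.124). Over the fits that left out 1 library, this value ran from 0.07 without replicate 1 at 0 h (edgeR adjusted p = 0.459) and 0.09 without replicate 2 at 12 h (edgeR adjusted p = 0.389) to 0.21 without replicate 3 at 0 h, the 1 such fit in which it passed (edgeR adjusted p = 0.047). Ccnb2 rose by 0.24 ± 0.0654 after 24 h (edgeR adjusted p = 0.0165). This call was lost without replicate 1 at 0 h, the lowest library, at 0.16 (edgeR adjusted p = 0.0703), and without replicate 3 at 24 h, the highest, at 0.22 (edgeR adjusted p = 0.0685). Processed pseudogenes of Ccnb1 and Ccnb2 exist in the annotation, so reads shared with them make both genes' counts less certain.

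**Figure D2:**
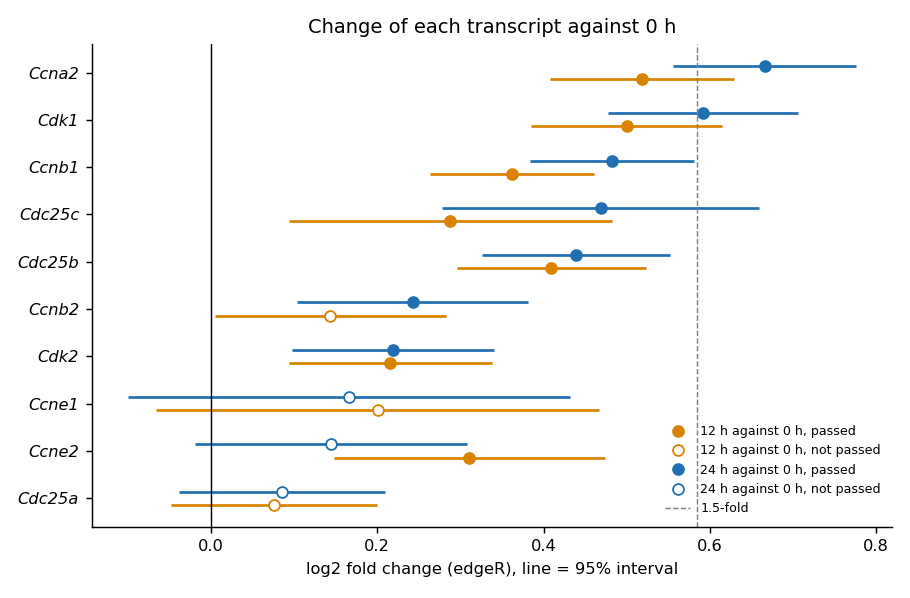
Log2 fold change of each member against 0 h (x axis) at 12 h (orange) and 24 h (blue), with the 95% interval from edgeR as a line. Filled points passed an adjusted p of 0.05, open points did not, and the dashed line marks 1.5-fold, which Ccna2 and Cdk1 reached at 24 h with 1.59-fold and 1.51-fold.

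The E cyclins bind CDK2 ahead of DNA synthesis. Ccne1 (chr7:38097984-38107534, minus strand) measured 5.11, 4.31 and 5.63 CPM at 0 h, 5.36, 6.11 and 5.81 at 12 h, and 6.22, 5.68 and 5.02 at 24 h. The times overlapped, and it passed in neither comparison with 0 h, with log2 fold changes of 0.20 ± 0.126 (edgeR adjusted p = 0.271) and 0.17 ± 0.126 (edgeR adjusted p = 0.415). With 144 to 194 counts per library at 0 h it was the member with the fewest counts, and its intervals, from -0.0664 to 0.467 at 12 h and from -0.0997 to 0.432 at 24 h, are the widest of the members. The 12 h interval includes the change of Ccnb1 at that time. Ccne2 (chr4:11191351-11204779, plus strand) measured 19.1, 24.3 and 22.7 CPM at 0 h, 25.9, 28.9 and 27.7 at 12 h, and 24.4, 25.6 and 23.4 at 24 h. Its 12 h libraries were above all others. Ccne2 rose at 12 h by 0.31 ± 0.077 (edgeR adjusted p = 0.00694) and stood at 0.14 ± 0.0774 after 24 h (edgeR adjusted p = 0.226). Against 12 h, the log2 fold change at 24 h was -0.17 ± 0.0762, which did not pass (edgeR adjusted p = 0.234). About 17.4% of the exonic bases of Ccne2 overlap Ints8 on the opposite strand, which did not pass at either time, with log2 fold changes of 0.02 and -0.03.

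Cdk2, the kinase partner of cyclins E and A, lies on the minus strand at chr10:128697939-128705031. Its CPM were 26.8, 29.4 and 27.9 at 0 h, 31.3, 32.4 and 34.0 at 12 h, and 30.8, 33.1 and 33.9 at 24 h. Every later library was above every 0 h library. Cdk2 rose by a log2 fold change of 0.22 ± 0.0576 after 12 h (edgeR adjusted p = 0.011) and of 0.22 ± 0.0573 after 24 h (edgeR adjusted p = 0.0138). At 24 h it no longer passed without replicate 1 at 0 h (0.19, edgeR adjusted p = 0.0501) or without replicate 3 at 24 h (0.19, edgeR adjusted p = 0.0651).

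The CDC25 phosphatases, which activate the cyclin-bound kinases, did not move alike. Cdc25a (chr9:109875579-109893895, plus strand), the form best known for opening DNA synthesis, measured 28.7, 29.3 and 31.25 CPM at 0 h, 32.0, 31.6 and 30.5 at 12 h, and 34.1, 30.0 and 30.7 at 24 h. Its times overlapped. The log2 fold change of Cdc25a was 0.08 at 12 h, with a 95% interval from -0.0486 to 0.20 (edgeR adjusted p = 0.38), and 0.09 at 24 h, with an interval from -0.0385 to 0.209 (edgeR adjusted p = 0.359). Cdc25b (chr2:131186949-131198497, plus strand), which acts on CDK1 at the approach to mitosis, measured 26.8, 29.75 and 27.5 CPM at 0 h, 35.8, 37.3 and 38.7 at 12 h, and 37.8, 38.6 and 37.7 at 24 h. All 6 later libraries were above 0 h and they differed little among themselves. Cdc25b rose by 0.41 ± 0.0537 after 12 h (edgeR adjusted p = 3.57e-05) and by 0.44 ± 0.0534 after 24 h (edgeR adjusted p = 2.18e-05).

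Cdc25c (chr18:34732993-34751533, minus strand), the third phosphatase, also acts on CDK1 at mitosis. Its CPM were 10.2, 11.3 and 12.1 at 0 h, 12.7, 15.3 and 13.2 at 12 h, and 16.6, 15.5 and 14.6 at 24 h. The 0 h libraries were below all others. Cdc25c rose by 0.29 ± 0.0916 after 12 h (edgeR adjusted p = 0.0287) and by 0.47 ± 0.0901 after 24 h (edgeR adjusted p = 0.00151). The 12 h call rested on single libraries. It was lost without replicate 1 at 0 h (0.23, edgeR adjusted p = 0.118), without replicate 2 at 0 h (0.30, edgeR adjusted p = 0.0666) and without replicate 2 at 12 h (0.20, edgeR adjusted p = 0.151). About 12.7% of its exonic bases overlap Gm3550, a gene on the opposite strand with too few counts to be tested.

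The 24 h libraries were next compared with those of 12 h. In edgeR 0 of 10 members passed, and 0 passed in DESeq2, against 1.97% of all genes higher and 3.06% lower at 24 h. At an unadjusted p under 0.05, for which no share over all genes was counted, there were 3, Ccna2, Ccnb1 and Ccne2. The log2 fold change was 0.15 ± 0.0512 for Ccna2 (edgeR adjusted p = 0.107) and 0.12 ± 0.046 for Ccnb1 (edgeR adjusted p = 0.147), both of which lay higher in every 24 h library than in any 12 h library. Ccna2 passed without replicate 2 at 12 h, its highest 12 h library, at 0.20 (edgeR adjusted p = 0.0402). Ccne2 lay lower in every 24 h library than in any 12 h library. The other 7 members had log2 fold changes from -0.03 for Ccne1 to 0.18 for Cdc25c, with edgeR adjusted p from 0.267 to 0.98.

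To compare related members directly, the log2 ratio of 2 genes' counts was taken within each library, where library scaling cancels, and the 3 times were compared by an exact permutation test over all 1680 assignments of libraries to times. The smallest p this allows is 0.00357. Each ratio's p below covers any difference among the 3 times, not that between 24 and 0 h alone. Of 7 pairs, 5 passed 0.05 after adjustment over the 7. The Cdk1/Cdk2 ratio was 0.679 to 0.772 at 0 h, 0.915 to 1.1 at 12 h and 1.04 to 1.12 at 24 h. It was thus higher in every later library, and its mean was higher by 0.38 at 24 h than at 0 h (exact permutation p = 0.0107, adjusted p = 0.0375). The Cdc25a/Cdc25c ratio was 1.37 to 1.5 at 0 h, 1.05 to 1.33 at 12 h and 0.955 to 1.07 at 24 h, lower at 24 h than at 0 h by a difference of -0.39 (exact permutation p = 0.00714, adjusted p = 0.0375). The Cdc25a/Cdc25b ratio differed by -0.36 between 24 and 0 h (exact permutation p = 0.0286, adjusted p = 0.045), with every 0 h library above the later ones.

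Within the cyclins, the Ccnb1/Ccnb2 ratio differed by 0.23 (exact permutation p = 0.0321, adjusted p = 0.045) and the Ccna2/Ccnb1 ratio by 0.19 (exact permutation p = 0.0214, adjusted p = 0.045) between 24 and 0 h. The Ccne1/Ccne2 ratio did not pass (0.01, exact permutation p = 0.625), and nor did Cdc25b/Cdc25c (-0.03, exact permutation p = 0.332). Its libraries ranged from 1.18 to 1.4 at 0 h and from 1.18 to 1.37 at 24 h. The 5 differences kept their direction in every fit that left out 1 library, but at most 2 of the 5 then passed, Cdk1/Cdk2 and Cdc25a/Cdc25c without replicate 2 at 12 h (both with an exact permutation adjusted p of 0.0125). Without replicate 3 at 12 h 1 pair passed, Cdc25a/Cdc25c, and without any of the other 7 libraries none did, with exact permutation adjusted p from 0.06 to 0.135 for these 5 pairs.

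**Figure D3:**
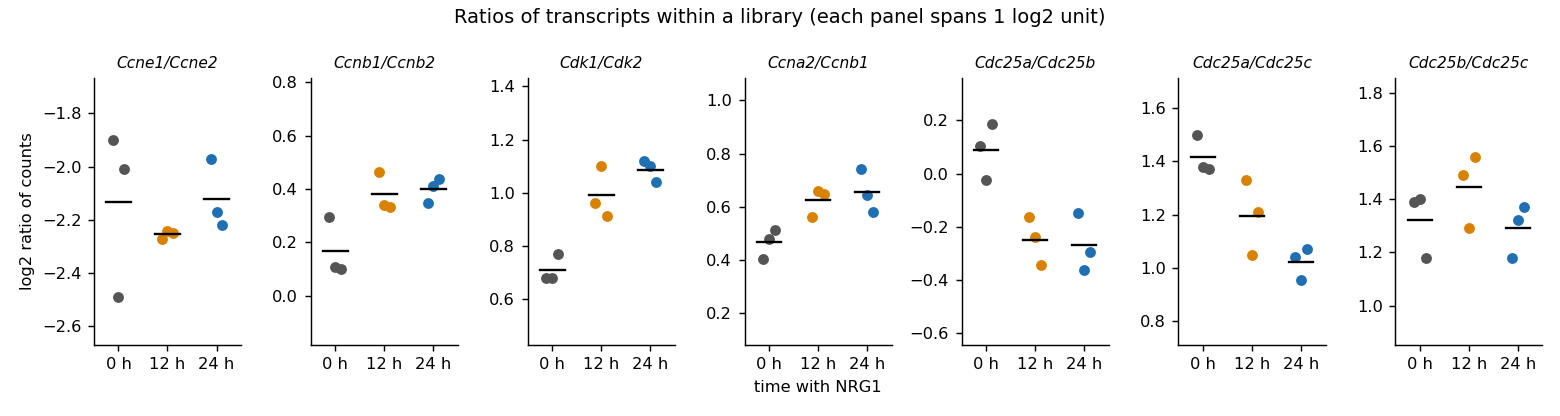
Log2 ratio of the counts of 2 members in each library (y axis, 1 log2 unit in every panel) by time with NRG1 in h (x axis). Points are libraries and bars are means of 3. The Cdk1/Cdk2 ratio is above 0.9 in all 12 and 24 h libraries and below 0.8 in all 0 h libraries, and the 2 ratios of Cdc25a lie lower at both later times.

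Levels of different genes were compared per length, as CPM per kilobase of exon in the GENCODE annotation. The length was that of all annotated exons of a gene merged, which can exceed the length of its mRNA in these cells. It was 1531 bases for Ccnb2, 4083 for Ccna2 and 4217 for Ccnb1, and the order depends on it. Ccnb2 was the highest at 0 h with 33.5 ± 3.43 CPM per kilobase (SD, n = 3), followed by Ccna2 with 19.4 ± 1.32, Ccnb1 with 13.6 ± 0.412 and Cdk1 with 9.29 ± 0.526. Cdc25b, Ccne2, Cdk2 and Cdc25a followed with 7.51, 6.30, 4.50 and 3.71 CPM per kilobase. Cdc25c, with 2.28 ± 0.196, and Ccne1, with 1.89 ± 0.25, were the lowest. The order was the same at all 3 times. Neighbors in it did not overlap in their libraries, except Cdc25c and Ccne1 at 0 h, whose libraries ranged from 2.07 to 2.46 and from 1.62 to 2.12 CPM per kilobase. Ccnb2 was thus the highest member by this measure while its log2 fold change was the sixth of the 10 at 24 h. Without division by length, Ccna2 (79.35 CPM) and Ccnb1 (57.3 CPM) were above Ccnb2 (51.2 CPM) at 0 h.

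**Figure D4:**
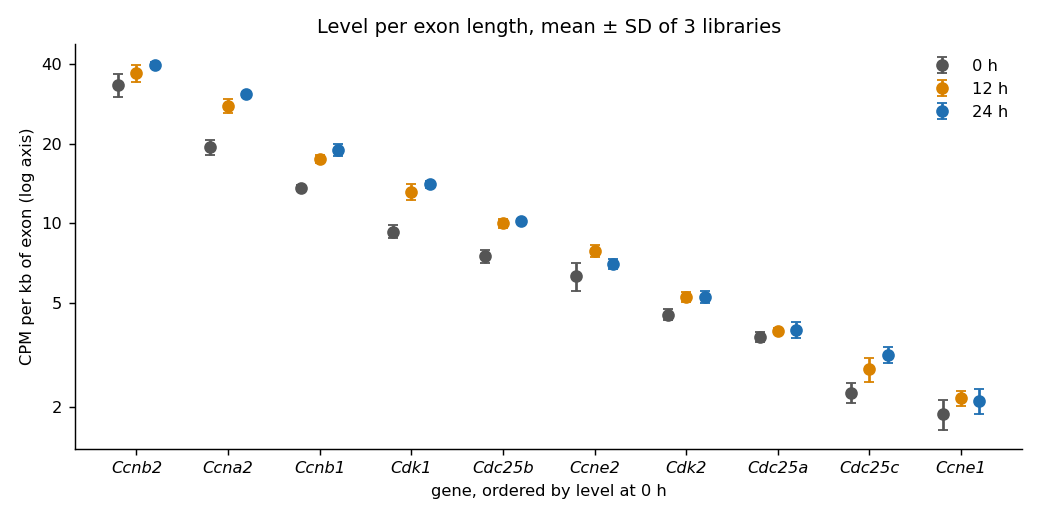
Level of each member per length as CPM per kilobase of merged annotated exons (y axis, log scale), mean ± SD of 3 libraries at 0, 12 and 24 h, with genes ordered by the level at 0 h (x axis). Ccnb2 is the highest at 33.5 and Ccne1 the lowest at 1.89 CPM per kilobase at 0 h, and the order does not change with time.

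The genes that act on these kinases were then counted by role. Of all tested genes, 13.6% passed higher and 11.9% lower at 12 h, and 9.67% higher and 7.76% lower at 24 h. The counts of these small lists were not tested against those shares. The CKS subunits, which help cyclin-bound kinases hold their substrates, rose at both times, with 2 of 2 tested genes passing. Log2 fold changes at 12 and 24 h were 0.26 and 0.28 for Cks1b and 0.42 and 0.55 for Cks2. The inhibitory kinases rose as well, 2 of 2, with 0.57 and 0.72 for Wee1 and 0.38 and 0.47 for Pkmyt1. The inhibitory kinases and the activating phosphatases Cdc25b and Cdc25c thus passed in the same direction at both times. Of the CDK-activating kinase, 0 of 3 genes passed at 12 h, with 1 at an unadjusted p under 0.05, while Cdk7, its catalytic subunit, fell by 0.15 after 24 h (edgeR adjusted p = 0.0487). That list had medians of -0.05 and -0.09.

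Among the CIP/KIP inhibitors and the phosphatase gene Cdkn3, 1 of 4 tested genes passed at each time, upward. Over all tested genes 13.6% passed higher at 12 h and 9.67% at 24 h. Cdkn1a, which encodes the inhibitor p21, rose by 0.84 ± 0.0929 after 12 h (edgeR adjusted p = 7.83e-06), from 47.4 to 85.1 CPM. At 24 h it stood at 56.8 CPM, 0.26 ± 0.0943 above 0 h (edgeR adjusted p = 0.0653), and fell by 0.58 from 12 to 24 h (edgeR adjusted p = 0.00152). Cdkn3, whose product dephosphorylates CDKs, rose by 0.40 after 24 h (edgeR adjusted p = 0.0322). Cdkn1b, encoding p27, had 270.0 CPM at 0 h and 261 at 24 h and did not pass, with a log2 fold change of -0.05. The list's medians were 0.22 and 0.11.

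Of 11 tested genes that destroy cyclins or CDC25 proteins or restrain their destruction, 4 passed upward and 1 downward at each time, with medians of 0.08 and 0.05. The shares over all tested genes were 13.6% higher and 11.9% lower at 12 h, and 9.67% and 7.76% at 24 h. Fbxo5, an inhibitor of the anaphase-promoting complex, rose by 0.81 and 0.92, and Ccnf, the cyclin F subunit of a ubiquitin ligase, by 0.65 and 0.60. Fzr1, by 0.34 and 0.29, and Cdc20, by 0.27 and 0.38, were the other genes of this list that passed upward. Fbxw7, which marks cyclin E for destruction, fell by 0.33 after 12 h (edgeR adjusted p = 2.49e-04) and by 0.30 after 24 h (edgeR adjusted p = 7.27e-04). Of 5 kinases that act on CDC25 proteins, 3 passed upward and 0 downward at each time. Chek1, which restrains CDC25 after DNA damage, rose by 0.56 and 0.48, and Plk1, which promotes CDC25 activity at mitosis, by 0.45 and 0.56. The medians of that list were 0.33 and 0.40.

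The genes of the factors named above for the CHR element were counted in the same way. Whether their products act on the members in these cells was not tested. Of 7 genes for MuvB, MYBL2 and FOXM1, 4 passed upward and 0 downward at each time, with medians of 0.35 and 0.53. Upward passes made up 13.6% of all tested genes at 12 h and 9.67% at 24 h. Mybl2 rose from 24.2 to 43.25 CPM at 12 h, by 0.83 ± 0.0622 (edgeR adjusted p = 1.85e-07), and stood 0.64 above 0 h at 24 h. Foxm1 rose by 0.48 after 12 h and by 0.69 after 24 h. Of 5 tested genes for the Greatwall kinase and PP2A-B55, a phosphatase that opposes CDK1, 2 passed upward at 12 h and 3 at 24 h, with 0 downward and medians of 0.13 and 0.13. Mastl, encoding Greatwall, rose by 0.39 and 0.59, and Ppp2r2a, a B55 subunit, by 0.18 and 0.13.

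**Figure D5:**
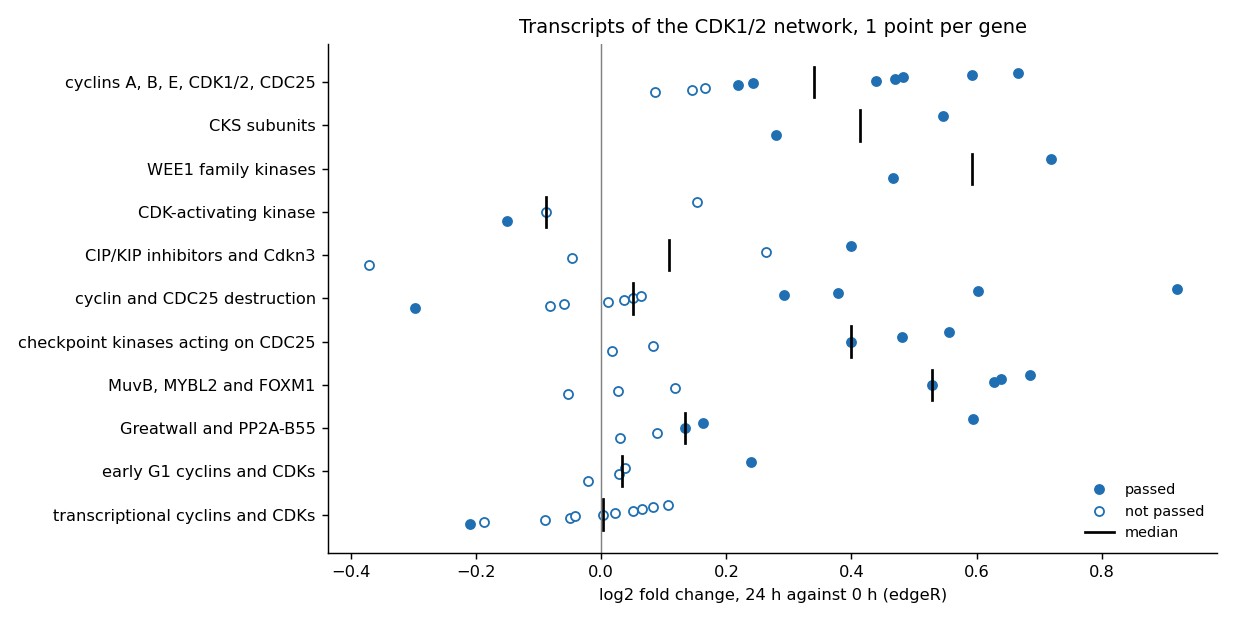
Log2 fold change at 24 h against 0 h (x axis) for each gene of the lists named on the y axis, with the members in the top row. Filled points passed an edgeR adjusted p of 0.05, open points did not, and the vertical bar is the median, 0.34 for the members, 0.53 for MuvB, MYBL2 and FOXM1 and -0.09 for the CDK-activating kinase.

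Other cyclins and CDKs served for comparison, beside shares over all tested genes of 13.6% higher and 11.9% lower at 12 h, and 9.67% and 7.76% at 24 h. Of 4 tested early G1 genes, 2 passed upward at 12 h and 1 at 24 h, with medians of 0.12 and 0.03. Ccnd1, the cyclin D1 gene, rose by 0.14 and 0.24, Ccnd3 rose by 0.17 after 12 h (edgeR adjusted p = 0.00609), and Cdk4 and Cdk6 did not pass at either time. Of 11 cyclins and CDKs that act in transcription, 1 passed upward and 3 downward at 12 h, and 0 upward and 1 downward at 24 h, where 3 had an unadjusted p under 0.05. The list's medians were -0.03 and 0.00318. Ccnl2, a cyclin of the splicing machinery, fell by 0.38 after 12 h (edgeR adjusted p = 0.00164), and Ccnt2, a partner of CDK9, fell by 0.26 and 0.21.

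Genes with profiles most like the members were sought over the 9 libraries among 8528 genes with at least 10 CPM on average, as a description. For the mean profile of Ccna2, Ccnb1, Ccnb2, Cdk1, Cdc25b and Cdc25c, the 5 highest Pearson r were those of Foxm1 (0.995), Spag5 (0.994), Smc4 (0.994), Cdt1 (0.993) and Anln (0.992). Among the members themselves, r with this mean, which includes each of them, ran from 0.886 for Ccnb2 to 0.997 for Ccna2. For the mean of Ccne1, Ccne2, Cdk2 and Cdc25a, they were those of Chtop (0.986), Paxip1 (0.98), Gins2 (0.977), Chek1 (0.968) and Dctpp1 (0.966), and the members' own r ran from 0.686 for Cdc25a to 0.871 for Ccne2. The libraries share 3 times and their depths, so r describes these 9 libraries only.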

How the data were processed

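RNA from 9 cultures of MyC-CaP cells was sequenced as paired-end reads from poly(A) mRNA libraries on a NovaSeq. The authors trimmed reads with Cutadapt, aligned them with STAR to GRCm38, and counted reads per gene with featureCounts on a GENCODE annotation. The deposited values are raw counts per gene, not normalized. The strand setting and the handling of reads with several matches are not given in the sources used here.

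Counts were filtered with filterByExpr (11373 of 15552 genes kept), scaled by TMM and fitted over all 9 libraries in edgeR 4.0.16 under R 4.3.3 with the quasi-likelihood F-test, in place of the DESeq2 used by the study. Adjusted p-values are Benjamini-Hochberg over all genes tested, and 0.05 was the threshold. A change was also read against 1.5-fold. Two-sided tests were used throughout. DESeq2 1.42.0, other scalings, no filter, glmTreat, a replicate block and leaving out each library were tried. CPM are after TMM, and log2 CPM used a prior count of 2. Exonic lengths and overlaps came from GENCODE on GRCm38, in an earlier release than the authors used, with identical coordinates for the 10 members. On simulated data, 89% of 100 genes changed 1.4-fold and 99% of 100 changed 2-fold passed among 11308. Smaller changes, such as those of the members that did not pass, were not simulated.

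The members, the gene lists, the 7 ratios and the naming rule (up to 2 genes a list with the largest change among those that passed, and the 5 most alike in profile) were chosen with earlier results of these data known. Cdkn1b, Cdk4, Cdk6, Fbxw7, Fzr1 and Cdc20 are among the genes named beyond that rule. Replicates of a time differed by more than counting noise, with chi-square values per degree of freedom from 3.81 to 10.5, so none was merged. Ccna1 and Ccnb3 were not analysed here. A luminal marker is not reported here.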

Additional observations from a re-analysis of the deposited data

How the results depend on the processing

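The number of members that passed was 7 at 12 h and 7 at 24 h with DESeq2, with its size factors, with total counts in place of TMM and with only the 2 compared times in the fit. Without a filter on low counts, 8 passed at 12 h, 7 at 24 h, and 1 between 12 and 24 h (Ccna2), and 53 genes rather than 33 were called in that last comparison. With glmTreat, a test against 1.5-fold instead of against no change, 0 members passed at 12 h and 0 at 24 h, with 4, 6 and 0 genes called in the 3 comparisons. Leaving out 1 library each, 6 to 8 members passed at 12 h, 5 to 7 at 24 h and 0 to 1 between 12 and 24 h, 16 to 36 genes were called between 12 and 24 h (16 without replicate 1 at 24 h), and 0 to 2 of the 7 ratios passed. Adding 2 to the counts left 5 ratios passing. No called log2 fold change of a member changed sign under any alternative run.

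Replicate numbers are shared across the times, and the deviations of same-numbered libraries from their group means correlated with r from -0.249 to 0.331 over 9 pairs, against -0.363 to 0.388 for other numbers. The 3 pairs of replicate 1 had r of 0.331, 0.188 and 0.24. Not every pair was over 0.1 (4 of the 9 were), so the numbers were not taken to pair the libraries. At both other times, 4 of 9 libraries were closest to their own number. With the replicate block, 7, 7 and 0 members passed and 268, 259 and 33 genes were called, and no member's call changed.

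With 3 libraries a time, members with few counts, such as Ccne1, had wide intervals. Intervals and p-values measure the spread between these libraries, with each gene's spread estimated in part from the other genes by the edgeR fit. The SE was obtained from the log2 fold change and the F statistic. The study describes cells plated in triplicate in multiwell plates, and no further separation of the replicates is stated.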
